A study of Homo sapiens with 47 samples.

Results

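The genes described here are those of the mitochondrial protein import machinery, taken as all 24 rows of the UMI table whose symbol starts with TIMM or TOMM, out of 18651 gene rows. The table holds 47 single cells of HEK293, a long-established line from human embryonic kidney that carries adenovirus DNA, grown in DMEM with fetal calf serum and glutamine, with no treatment and no second group. Cells were lysed in a Fluidigm C1 circuit with ERCC spike-in RNAs, and poly(A) RNA was copied from an oligo-dT primer. A random tag (unique molecular identifier, UMI) was added where the cDNA of a transcript's 5' end finishes. A UMI thus counts 1 captured molecule copied up to that end, and levels of different genes are set side by side without division by length. Whether a transcript's length affects how many of its molecules are copied that far was not tested. The labels name no separate cultures, so the 47 cells are 1 sample and no test between groups exists. Cells are called by the number in their labels, and some values are also given for the cells numbered up to 48 and above 48.

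Almost all mitochondrial proteins are encoded in the nucleus, made in the cytosol and imported. The translocase of the outer membrane (TOM) is the common entry gate. Small TIM chaperones carry hydrophobic proteins across the intermembrane space, the TIM22 translocase inserts carrier proteins into the inner membrane, and the TIM23 translocase passes presequence proteins into the matrix, where a motor anchored by TIMM44 pulls them in.

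A cell had 29325 to 138647 endogenous UMIs, with a median of 59689, and 2573 to 4717 spike-in UMIs. Of 6 transcripts reported for the line, VIM, UCHL1 and NEFM had 728, 817 and 462 UMIs over all cells, and KRT8, KRT18 and NEFL had 125, 223 and 112. Of 9 markers of blood, endothelium, fibroblasts and liver, COL1A1 had 12 UMIs in 4 cells, COL1A2 had 1 UMI, and the other 7 were not analysed here. Shares below are shares of endogenous UMIs with 95% exact binomial intervals, which cover counting error only.

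The promoters of 5 members are shown because the first is that of the most abundant member, the next is that of the member with the highest pairwise correlations, the third that of the member with the highest index of dispersion over cells, and the last are those of a pair of paralogs with close medians. Each is the 100 bases before the RefSeq transcript start on GRCh38.p14, which is not the build named in the submitters' processing notes (hg19, GRCh37). TOMM7 lies at chr7:22822850-22822949 on the minus strand, TOMM20 at chr1:235128838-235128937 on the minus strand, TIMM10 at chr11:57530755-57530854 on the minus strand, TIMM17A at chr1:201955403-201955502 on the plus strand and TIMM17B at chrX:48897769-48897868 on the minus strand. Capitals mark CCGGAAG (the core bound by ETS factors), TGCGCA (part of the site of nuclear respiratory factor NRF1) and CCAAT, on either strand.
TOMM7: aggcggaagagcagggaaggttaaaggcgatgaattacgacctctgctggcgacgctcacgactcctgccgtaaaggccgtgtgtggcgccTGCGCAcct
TOMM20: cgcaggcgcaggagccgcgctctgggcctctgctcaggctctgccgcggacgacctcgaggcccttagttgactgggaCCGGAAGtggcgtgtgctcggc
TIMM10: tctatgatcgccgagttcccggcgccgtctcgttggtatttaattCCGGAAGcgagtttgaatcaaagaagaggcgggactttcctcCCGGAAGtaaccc
TIMM17A: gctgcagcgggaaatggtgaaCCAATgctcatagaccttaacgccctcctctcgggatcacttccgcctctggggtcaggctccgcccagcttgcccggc
TIMM17B: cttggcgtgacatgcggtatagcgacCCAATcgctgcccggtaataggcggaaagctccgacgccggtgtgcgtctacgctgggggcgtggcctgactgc

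RefSeq promoters, 250 bases before to 50 after a start, were found for 21 of the 24 members (TOMM70A under its current symbol TOMM70), and not for TIMM8B, TOMM5 and TIMM8AP1. CCGGAAG was in 9 of the 21, which were TIMM10, TIMM13, TIMM23, TIMM23B, TIMMDC1, TOMM20, TOMM22, TOMM34 and TOMM70A, against 10.3% of all 35116 promoters of the table and 22.1% of those of 6669 other genes with at least 20 UMIs here. TIMM23 and TIMM23B are near-identical copies and are not independent entries of that count. TGCGCA was in 4 (TIMM22, TOMM20, TOMM20L and TOMM7), against 8.24% of all promoters and 15.8% of those of the genes with at least 20 UMIs. CCAAT was in 8 of the 21, and the share of 38.1% was the same to the digits given in the promoters of the genes with at least 20 UMIs. TATAAA was in 0 of the 21, against 11.5% and 4.83%. These 4 were kept from 13 strings, after the matches of the others had been seen. The other 9 were a longer ETS form CCGGAAGT (4 of 21 members, 10.6% of promoters of the genes with at least 20 UMIs), CGCATGCG (2, 4.54%), AAGATGGC (2, 6.99%), GGGGCGGGG (3, 28.7%), GGGCGG (13, 73.1%), NRF1 palindromes with a fixed centre (0, 2.68%) and with 1 open base (4, 14.035%), a longer YY1 form (1, 3.85%) and a palindrome around CGCG (0, 1.21%). Several overlap one another. A match is a run of letters and not a measured binding site, and with 13 strings tried nothing is drawn from the shares.

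The 24 rows held 15887 of 2919198 endogenous UMIs, a share of 0.544% (0.536% to 0.553%). A cell had 338 ± 143 of them (SD, n = 47, not scaled for depth). The fewest, 125, were in cell 52, the median was 305, and cell 43 had the most, 791. As a share, the summed level was lowest in cell 8 with 0.362%, had a median of 0.534% and was highest in cell 10 with 0.655%, a range of 1.81-fold. With the spike-in UMIs of each cell taken as the recovery of 20000 added molecules, the median estimate was 1959 mRNA molecules of the 24 rows in a cell. Cell 52 had the lowest estimate, 687, and cell 43 the highest, 3399. The estimate takes endogenous mRNA to be captured like the spike-ins.

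The TOM rows held 48.7% of the members' UMIs. The rows of the TIM translocases, the motor anchor and the small TIM chaperones together held 46.7%, and the small TIM chaperones alone 28.1%. The TIM23 rows held 12.9%, TIMM44 3.27% and the TIM22 channel 2.39%. These sums cover rows named TIMM or TOMM only, and no row was named TOMM6, TIMM10B or TIMM29. Subunits and partners under other symbols are left out, such as ROMO1 of the TIM23 translocase (3007 UMIs). Another is C19orf52 of the TIM22 partners (26 UMIs), which is an earlier symbol of TIMM29. TOM rows took 0.265% of endogenous UMIs (0.259% to 0.271%), from 0.157% in cell 8 to 0.358% in cell 75. TIM rows took 0.254% (0.249% to 0.260%), from 0.156% in cell 52 to 0.335% in cell 34. UMIs of TOM rows outnumbered those of TIM rows in 25 of 47 cells, so neither set of rows was the higher one throughout. With subunits left out, these counts do not show which whole complex had more mRNA.

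**Figure D1:**
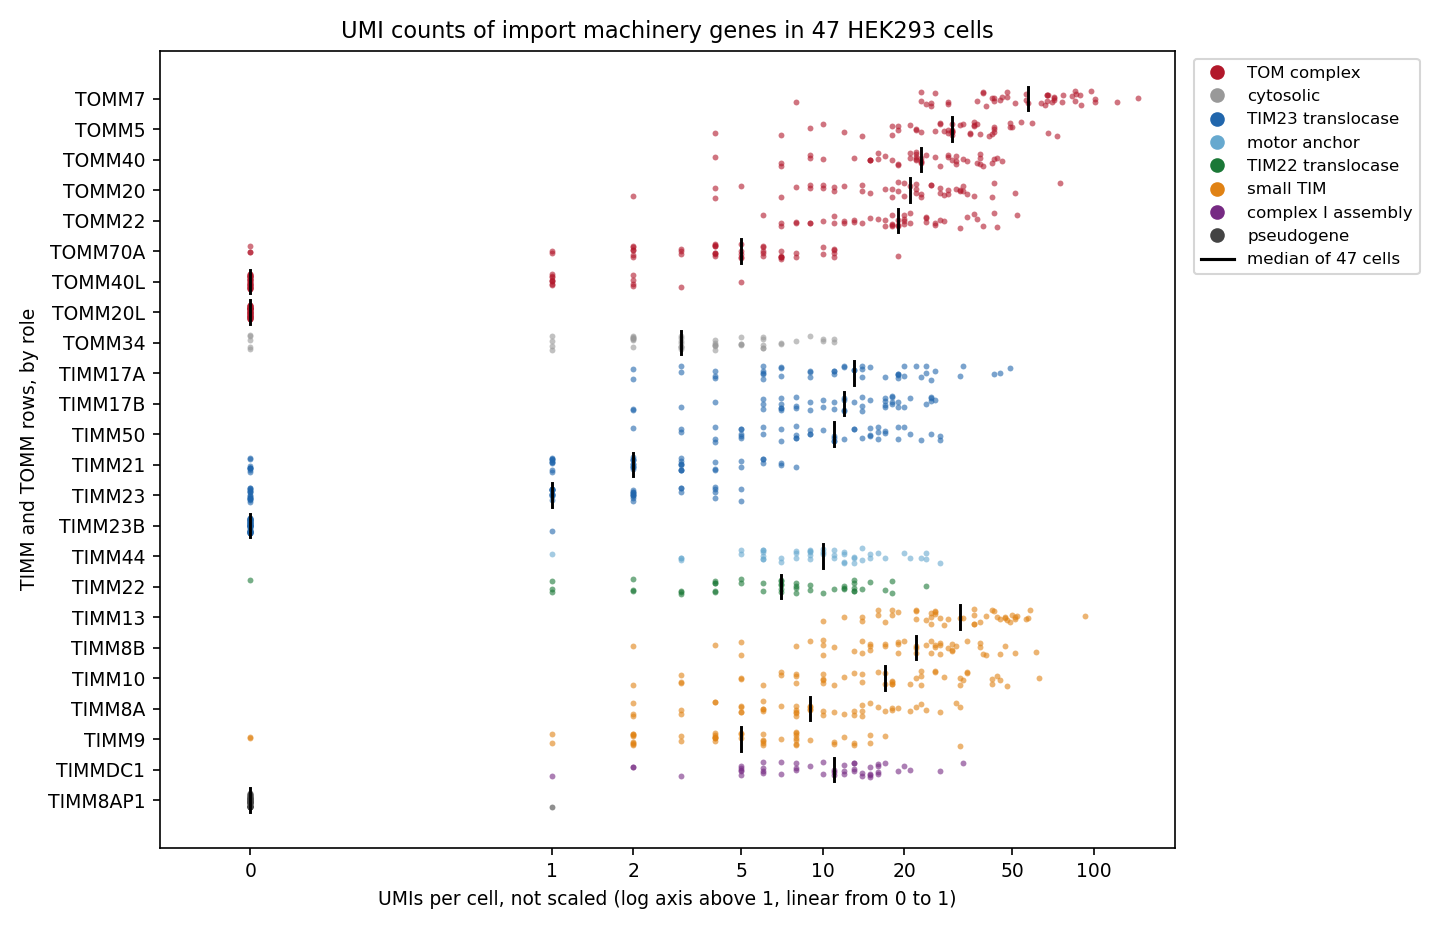
UMIs per cell (x axis, log above 1) of each TIMM and TOMM row (y axis, grouped by role) with 1 point per cell and a bar at the median of 47 cells. TOMM7 has the highest median, 57 UMIs, and TOMM40L, TOMM20L, TIMM23B and TIMM8AP1 have a median of 0.

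Of the TOM complex, the small subunit TOMM7, which modulates the stability of the complex and holds PINK1 at depolarised mitochondria, was the most abundant member. It had 8 UMIs in cell 31, a median of 57 and 145 in cell 43, a mean of 60.0 ± 28.4 (SD, n = 47), and ranked 166 among all rows. It was the highest member in 40 of 47 cells. In the other 7 cells TIMM13 (cells 2 and 7), TOMM5 (cells 14 and 56), TOMM40 (cell 16), TIMM8B (cell 28) or TOMM22 (cell 31) was higher. Cell 31 stood out, with 8 UMIs of TOMM7 against 21 of TOMM22, while in cell 2 the counts were 48 and, for TIMM13, 50.

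TOMM5, another small subunit of the complex, had 4 UMIs in cell 23, a median of 30 and 73 in cell 62 (mean 31.8 ± 14.9). TOMM40, the beta-barrel that forms the pore, had 4 in cell 31, a median of 23 and 46 in cell 62 (24.3 ± 10.7). TOMM20, the receptor for presequences, had 2 in cell 31, a median of 21 and 75 in cell 43 (22.1 ± 13.6). TOMM5 was above TOMM40 in 33 cells and below it in 13. Its share was 0.0512% (0.0487% to 0.0539%) and that of TOMM40 0.0392% (0.0369% to 0.0415%). These intervals do not overlap, but they cover counting error only. Both genes spread more than that over cells (index of dispersion, described below, 2.65 and 3.28). TOMM40 was above TOMM20 in 29 cells and below in 17, with overlapping intervals.

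TOMM22, the central receptor that links pores, had 6 UMIs in cell 87, a median of 19 and 52 in cell 43 (20.5 ± 10.7). TOMM70A, the receptor for carrier proteins delivered by chaperones, was lower, with 0 in cells 10, 23 and 73, a median of 5 and 19 in cell 39 (5.34 ± 3.65). TOMM20 was above TOMM22 in 21 cells and below in 25, with overlapping intervals of their shares. The highest TOMM70A count equalled the median of TOMM22. TOMM40L, a paralog of the pore protein, had 24 UMIs over all cells, at most 5 in cell 9, and a median of 0. TOMM20L had 0 of 2919198 UMIs, which allows a share of up to 0.000103% by the limit of 3 counts used for a count of 0.

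TOMM34, a cytosolic co-chaperone that is not a subunit of the complex, had 0 to 11 UMIs with a median of 3 (mean 4.02 ± 2.97). Its highest counts were in cells 38 and 67.

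Among the small TIM chaperones, partners taken one by one were not at like levels. TIMM13, which forms a hexamer with TIMM8A, had 10 UMIs in cell 52, a median of 32 and 93 in cell 43 (34.1 ± 16.2). TIMM8A, whose loss causes deafness-dystonia syndrome, had 2 UMIs in cells 35, 73 and 86, a median of 9 and 32 in cell 62 (11.5 ± 7.64). Its paralog TIMM8B had 2 in cell 23, a median of 22 and 61 in cell 62 (23.1 ± 13.0). TIMM13 thus held 1601 UMIs, against 541 of TIMM8A and 1087 of TIMM8B. The paralogs TIMM8A and TIMM8B together held about as many UMIs as TIMM13.

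TIMM10, which forms a hexamer with TIMM9, had 2 UMIs in cell 73, a median of 17 and 63 in cell 62 (19.8 ± 14.1). TIMM9 had 0 in cells 14 and 39, a median of 5 and 32 in cell 43 (6.55 ± 5.64). Over all cells there were 932 UMIs of TIMM10 and 308 of TIMM9. The TIMM9 gene overlaps TOMM20L and KIAA0586 in the RefSeq annotation, and the use of strand in counting was not given in the sources used here, so reads of the overlapping parts cannot be told apart. TOMM20L had 0 UMIs and KIAA0586 had 51.

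In the TIM23 translocase, the paralogs TIMM17A and TIMM17B, alternative subunits beside the channel, had close medians. The share of TIMM17A was 0.0246% (0.0229% to 0.0265%) and that of TIMM17B 0.0209% (0.0193% to 0.0226%). These intervals cover counting error only. Both genes spread more than that over cells (index of dispersion, described below, 3.35 and 2.63). That the intervals do not overlap thus does not show which paralog was higher. TIMM17A had 2 UMIs in cells 14 and 17, a median of 13 and 49 in cell 62 (15.3 ± 11.3). TIMM17B had 2 in cells 8 and 23, a median of 12 and 26 in cell 69 (13.0 ± 6.54). TIMM17A had the higher count in 23 cells, TIMM17B in 22, and the counts were equal in 2. The TIMM17B gene overlaps PQBP1 (342 UMIs), with the same limit on strand, which also holds for TIMM13 with TMPRSS9 (3 UMIs), TIMM22 with ABR (22), TOMM40L with NR1I3 (2) and TOMM20 with SNORA14B (2). TIMM8B overlaps NKAPD1 and TIMMDC1 overlaps CD80, with the same limit.

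TIMM50, the presequence receptor of the translocase, had 2 UMIs in cell 28, a median of 11 and 27 in cells 43 and 62 (11.6 ± 6.64). TIMM21, which couples the translocase to the TOM complex and the respiratory chain, had 0 to 8 UMIs with a median of 2 (2.45 ± 2.12). TIMM23, the translocase subunit that gives the complex its name, was listed with only 67 UMIs, 0 to 5 per cell and a median of 1 (1.43 ± 1.46). It was below both TIMM17 paralogs in 43 of 47 cells. TIMM23 and TIMM23B, which had 1 UMI in all, are near-identical copies, and how multi-mapping reads were handled was not given in the sources used here. The low TIMM23 count is therefore uncertain, also beside those of its partners.

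TIMM44, which tethers the import motor to the channel, had 1 UMI in cell 80, a median of 10 and 27 in cell 40 (11.04 ± 5.97). TIMM22, the channel for carrier insertion, had 0 in cell 80, a median of 7 and 24 in cell 43 (8.09 ± 5.35). Cell 80 was thus the lowest cell for both. TIMMDC1, a relative of the TIM23 family that acts in assembly of respiratory complex I, had 1 UMI in cell 8, a median of 11 and 33 in cell 43 (11.4 ± 6.40). The pseudogene TIMM8AP1 had 1 UMI. Named pseudogenes are also annotated in GENCODE 29 for TOMM22 (6), TOMM20 (4), TIMM9 (3), TIMM8B (2) and TIMM17B (1), so reads shared with those copies make the counts of these 5 genes less certain.

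Of the 24 members, 14 had a UMI in each of the 47 cells, against 5.8% of the 17819 rows with a UMI. These 14 were TOMM7, TOMM5, TOMM40, TOMM20, TOMM22, TIMM13, TIMM8B, TIMM10, TIMM8A, TIMM17A, TIMM17B, TIMM50, TIMM44 and TIMMDC1, for which counting error alone gives 46.97 to 47 cells. A cell had UMIs of 16 to 21 members, with a median of 20. Detection follows level, and these rows rank from 166 to 835 of all rows.

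The other 7 members with at least 20 UMIs were each found in fewer cells than their level and the depth of the cells gave under counting error. TIMM22 had a UMI in 46 cells with 46.9 expected, TIMM9 in 45 with 46.7, TOMM70A in 44 with 46.3 and TOMM34 in 42 with 45.2. TIMM21 had a UMI in 38 with 41.5 expected, TIMM23 in 31 with 34.3 and TOMM40L in 14 with 18.3. Such a shortfall was the rule in the table, where 97.8% of the 8055 rows of this kind had one, and it is no result about the import genes. TOMM40L, with 24 UMIs, was the member just inside the minimum of 20, and TIMM23B and TIMM8AP1, with 1 each, were outside it.

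The spread over cells was measured for the 21 members with at least 20 UMIs by an index of dispersion. It is the chi-square of a gene's counts, set against what each cell's endogenous total predicts, divided by 46 degrees of freedom, and it is 1 under counting error alone. For the 52 spike-ins with at least 20 UMIs it was computed against their own totals, with a median of 2.11 and a range of 0.757 to 3.97. The highest value was that of a spike-in with 115 UMIs. Set against endogenous totals instead, the spike-ins had a median of 3.10 and a highest value of 76.4, and no member exceeded it (0.033% of rows did). The first reference was adopted after both had been seen. The members had a median of 2.31, from 1.14 for TIMM23 to 4.31 for TIMM10, and all 9088 rows a median of 2.00. Members with an index above the spike-in median numbered 14 of 21, against 43% of the 9088 rows. Between 200 and 3000 UMIs its median was 2.65 for 17 members, 2.35 for 1921 rows and 2.26 for 21 spike-ins. TIMM10 was the 1 member of 21 above the highest spike-in, as were 3.21% of rows, so with this scaling the count is near the background. The highest spike-in between 200 and 3000 UMIs had 3.41, which TIMM8B also exceeded.

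**Figure D2:**
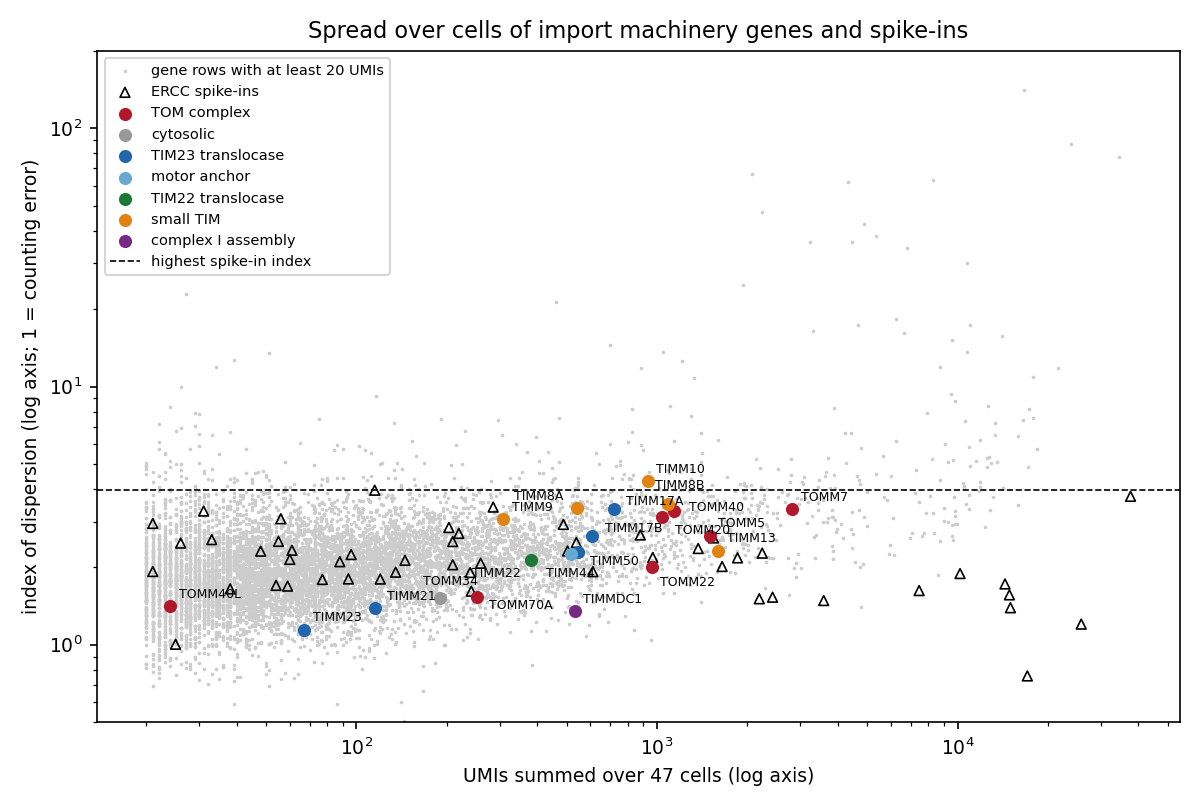
Index of dispersion (y axis, log) against UMIs summed over 47 cells (x axis, log) for 9088 gene rows (grey), 52 spike-ins (triangles) and 21 import genes (coloured by role). TIMM10, at 4.31, is the member above the dashed line at the highest spike-in index of 3.97, and TIMMDC1, at 1.34, lies low for its abundance.

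Scaled to the median total of 59689 UMIs, TIMM10 had 2.82 UMIs in cell 73, a median of 16.6 and 34.9 in cell 5. Its index was 4.12 without cell 5. It was 4.36 without cell 52 and 4.28 without cell 43. In cells numbered up to 48 the scaled median of TIMM10 was 16.8 and in those above 48 it was 16.2. The ranges overlapped almost fully, 3.84 to 34.9 and 2.82 to 32.6.

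TIMM8B had the second highest index of the members, 3.51, and it was 2.41 without cell 28, where its scaled count of 63.9 was far above its median of 20.2. TIMM8A, TIMM17A, TOMM7 and TOMM40 followed with 3.37, 3.35, 3.34 and 3.28, and TOMM20 and TIMM9 with 3.13 and 3.06. Without its highest cell (cell 10), TOMM40 had 2.68. All of these lie below the highest spike-in index of 3.97, and all but TIMM8B below the 3.41 of the highest spike-in between 200 and 3000 UMIs. As a coefficient of variation of scaled UMIs, TOMM7 had 0.259 and TIMM13 0.274, the lowest of the members, and TIMM10 had 0.498.

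TIMMDC1 had an index of 1.34 at 534 UMIs, the second lowest of the members. The lowest spike-in between 200 and 3000 UMIs had 1.51, and 10.6% of all rows had an index below that of TIMMDC1. TOMM70A and TOMM34 had 1.53 and 1.52, TOMM40L 1.41 and TIMM21 1.39. For genes at a few UMIs per cell, an index near 1 does not show that cells were alike.

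With counts scaled to endogenous totals, the pairwise correlations of the members were on average near 0. Over 47 cells of 1 run, with scaled UMIs on a log2(1 + UMI) scale, the 210 pairs of 21 members had a mean Spearman rho of 0.0571 and a median of 0.0626, and 68.1% of pairs were above 0. All pairs of the 9088 rows had a mean of 0.0183 and a median of 0.0182, and pairs of 798 rows at least as abundant as the median member (544 UMIs) a mean of 0.0159. The mitochondrial ribosomal protein genes (75 rows starting with MRPL or MRPS) had a mean of 0.0170 and the SLC25 carrier genes (31 rows), whose products the TIM22 route inserts, 0.0182. Correlations of this size in sparse counts are no finding, and no difference between these sets was tested.

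**Figure D3:**
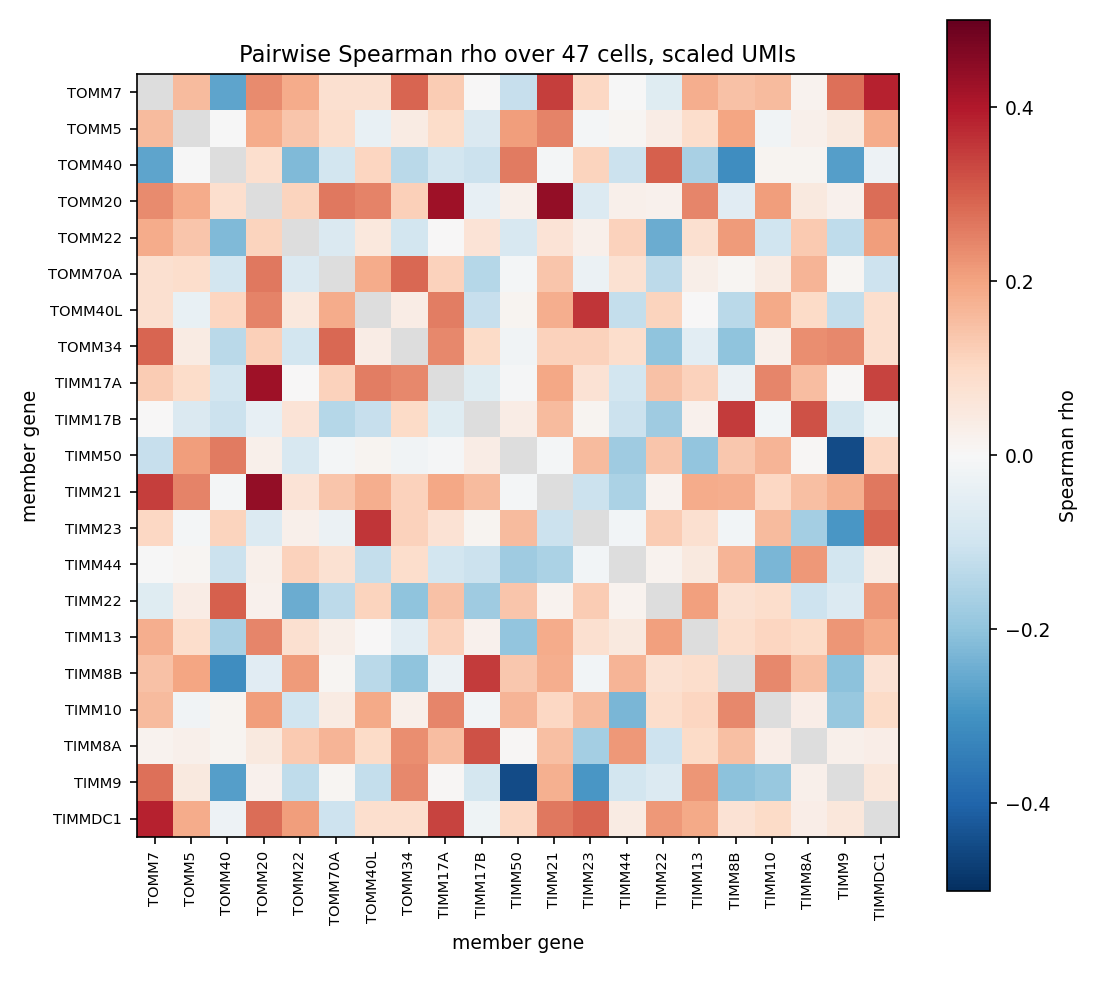
Spearman rho over 47 cells of scaled UMIs for each pair of 21 import genes (both axes, grouped by role, colour from -0.5 to 0.5, diagonal grey). TOMM20 is highest with TIMM21 and TIMM17A, at 0.440 and 0.423, and TIMM9 with TIMM50 is lowest, at -0.445.

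The highest pair was TOMM20 with TIMM21 (rho 0.440), which was 0.384 without the cells with the most extreme TIMM21 values, 44 and 32. TOMM20 with TIMM17A had 0.423, and TOMM7 with TIMMDC1 had 0.385. These 3 pairs were positive both in cells numbered up to 48 (0.502, 0.371 and 0.348) and in those above 48 (0.329, 0.498 and 0.522). The lowest pair was TIMM50 with TIMM9 (rho -0.445), which was -0.544 in cells up to 48 and -0.0784 above, and was -0.148 with counts scaled to spike-in totals. They are the extremes of 210 pairs and were picked for that.

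Pairs whose proteins bind each other, named here after the values were seen, had values from below 0 to low positive ones. TIMM10 with TIMM9 had a rho of -0.189, TIMM13 with TIMM8A 0.0975 and with TIMM8B 0.0875. TIMM17A with TIMM23 had 0.0742 and TIMM17B with TIMM23 had 0.0124. TIMM23 had 0.158 with TIMM50, -0.0153 with TIMM44 and -0.108 with TIMM21, and TIMM44 with TIMM50 had -0.178. The 21 pairs of TOM rows had a mean of 0.0725 and ran from -0.262 for TOMM40 with TOMM7 to 0.265 for TOMM20 with TOMM70A. Of the receptors and the pore, TOMM20 with TOMM22 had 0.112, TOMM20 with TOMM40 0.0843 and TOMM22 with TOMM40 -0.222. With the small subunits, TOMM20 had 0.238 (TOMM7) and 0.185 (TOMM5), and TOMM22 had 0.186 and 0.138. TOMM40 with TOMM5 had -0.000809. The paralogs TIMM17A and TIMM17B had -0.0611.

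TOMM40 was the member that ran most against the rest. Its rho with the summed scaled level of the other 23 rows was -0.278, with pairs of -0.309 with TIMM8B, -0.275 with TIMM9 and -0.262 with TOMM7, and 0.301 with TIMM22. Pearson's r of the same log2 values was -0.385 with TIMM8B and -0.211 with TIMM9, but 0.0243 with TOMM7. The rho with TIMM22 was 0.455 in cells numbered up to 48 and -0.0441 above. TIMM21, TIMMDC1 and TOMM20 ran most with the rest, with rho of 0.465, 0.439 and 0.428. With counts scaled to spike-in totals, which raised the mean over all 210 pairs to 0.329, TOMM40 had 0.259 with TOMM7 and 0.107 with TIMM8B, both still below that mean.

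The TOM and TIM sums were only loosely related as shares of the same total. Pearson's r over 47 cells was 0.224 and Spearman's rho 0.202, and r was 0.194 without cells 8 and 75, the farthest from the median TOM share. In the 30 cells numbered up to 48 r was 0.163 and in the 17 above 48 it was 0.355. Per spike-in UMI the rho was 0.825. Member UMIs and endogenous UMIs, both per spike-in UMI, had r = 0.954 and rho = 0.928, so cells with more mRNA per spike-in UMI had more import mRNA. The members are part of that content, and all 3 counts share the library of the cell.

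Cells with more endogenous UMIs also had a somewhat higher share of import mRNAs. Pearson's r was 0.408 and Spearman's rho 0.432 over 47 cells, and r was 0.418 without the deepest cells, 43 and 62. In cells numbered up to 48 r was 0.295 and in those above 48 it was 0.644. Of the 5 cells with the lowest shares, cells 8, 52, 87 and 31 had 31384 to 35675 UMIs and cell 2 had 68668, while cell 10, with the highest share, had 32527. With the share of mitochondrially encoded mRNAs r was -0.344, and it was -0.141 without cells 52 and 51. Cell 52, where those mRNAs took 12.1% of UMIs, had the second lowest import share, 0.382%, and shares are parts of 1 total. With the share of the mitochondrial ribosomal protein genes r was 0.507 (rho 0.466), and with that of the SLC25 genes 0.175 (rho 0.157). With each cell thinned to 29325 UMIs, the rho of the summed share with the endogenous UMIs before thinning was 0.385.

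**Figure D4:**
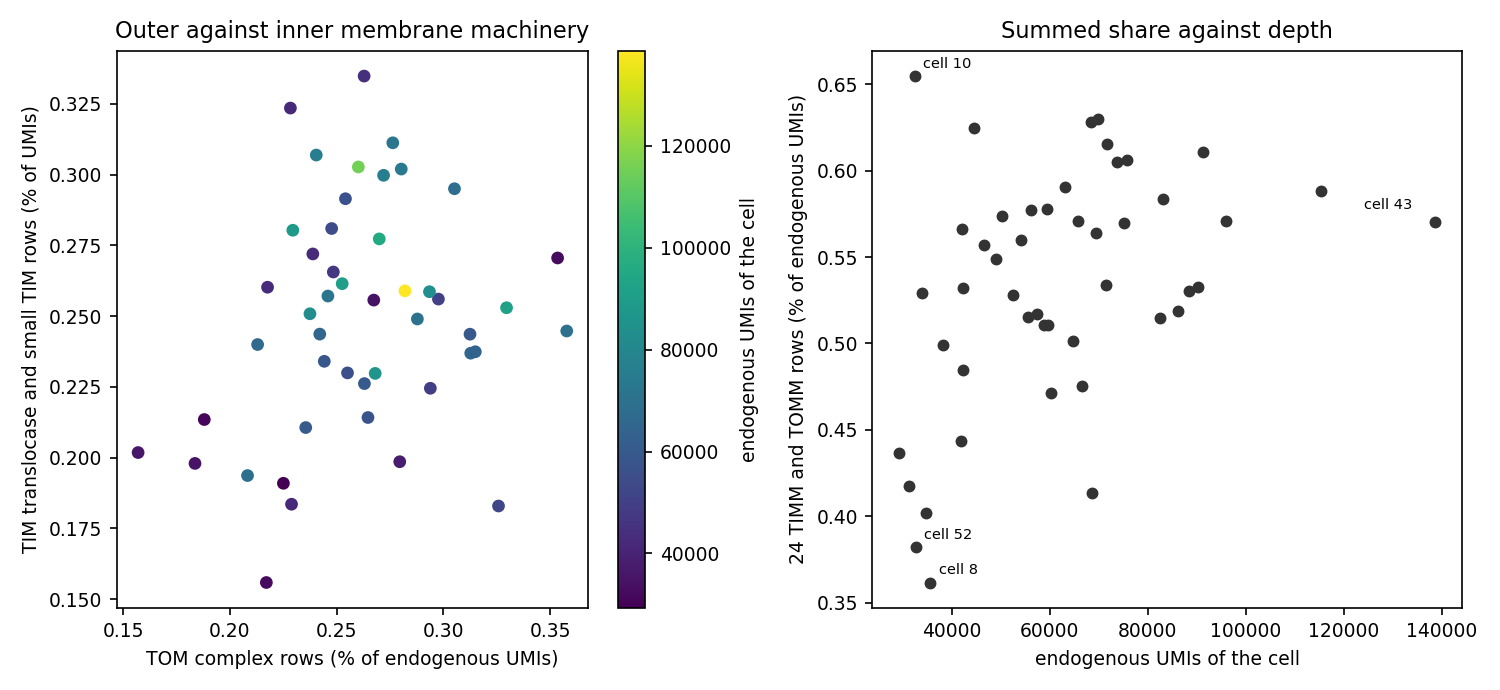
Left, share of UMIs of TIM rows (y axis, %) against TOM rows (x axis, %) in 47 cells, coloured by endogenous UMIs. Right, summed share of the 24 rows (y axis, %) against endogenous UMIs (x axis), where cell 8 is lowest at 0.362% and cell 10 highest at 0.655%.

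The wider import pathway was described by 29 further genes, of which 28 had a row and 26 at least 20 UMIs. HSPD1, the matrix chaperonin, was the most abundant with 77.3 ± 34.96 UMIs per cell (25 to 165), followed by ROMO1, a small subunit of the TIM23 translocase, with 64.0 ± 31.04 (13 to 165), and HSPE1, the co-chaperonin, with 41.9 ± 19.3 (14 to 100). HSPD1 had an index of 4.48, which was 4.25 without cell 44, and was the only one of the 26 above the highest spike-in, as were 3.21% of all rows. ROMO1 and GRPEL1, the nucleotide exchange factor of the import motor, followed with 3.66 and 3.53. The median index of the 26 was 2.29 and 17 exceeded the spike-in median, against 43% of all rows. Their mean pairwise rho was 0.00822, and 10 had a UMI in every cell, against 5.8% of rows with a UMI. Detection follows level, and neither the 17 nor the 10 was set against rows of like abundance.

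Of the motor subunits, DNAJC19, a J-protein, had 870 UMIs and a rho of 0.410 with the summed import level, PAM16, its regulatory partner, had 877 UMIs and 0.203, and HSPA9, the mitochondrial HSP70, had 630 UMIs and 0.194. Others of the same list had a rho of 0.140 (GRPEL1), 0.0749 (GRPEL2) and -0.215 (ROMO1). Oxidoreductase CHCHD4, which folds the small TIM proteins on arrival, had 132 UMIs, and its partner GFER had 56. The processing peptidase subunits PMPCB and PMPCA had 325 and 222, and SAMM50, which inserts TOMM40 into the outer membrane, had 194. Means per cell were 2.81 for CHCHD4, 1.19 for GFER and 6.91 for PMPCB, beside 6.55 for TIMM9, the lowest of the small TIM chaperones. The genes of this paragraph were picked after their values were seen.

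Among 3666 other rows with at least 100 UMIs, those closest to the summed import level over 47 cells were SOX4 (rho 0.566, 1331 UMIs), SLC39A6 (0.535), ZNF24 (0.534), UBAC2 (0.533) and PELO (0.529). Closest to TOMM7 were AC018738.2 (0.569), SLC39A6 (0.560), EIF2AK1 (0.490), CMPK1 (0.486) and LSM5 (0.486). Apart from SOX4 and LSM5 (1041 UMIs) these rows had at most 252 UMIs. They are the top of 3666 values each and carry no statement on shared control.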

How the data were processed

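The authors deposited 1 table of whole-number UMI counts, with gene symbols as rows and 47 single cells as columns and no normalization. Named tools and builds, per the submitters' processing notes, were cutadapt 1.2.1, STAR 2.4.0a, hg19 and GRCh37. How UMIs were collapsed, which annotation and strand setting served for counting, and how cells were chosen is not given in the sources used here. Every column name matched 1 cell's title apart from an added word. A repeated header line (0.0602% of all summed counts) and 78 spike-in rows were kept out of totals. Depth was 29325 to 138647 endogenous UMIs per cell, so a member at 1 UMI per cell is measured with large counting error.

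Levels, detection, the index of dispersion (rows with at least 20 UMIs), and correlations (UMIs scaled to the median total, log2 with 1 added) were computed with Python 3.11.15, numpy 2.4.6, pandas 2.3.3 and scipy 1.17.1. The index and the mean pairwise rho were checked on simulated data. The plan did not state which total the spike-ins are set against, and their own total was adopted after the values against both had been seen. Expected detection is the sum over cells of 1 minus exp(-m), with m the gene's share times the cell's endogenous UMIs. Scaling alternatives used edgeR 4.0.16 (TMM) and DESeq2 1.42.0 (size factors). No p-value was computed, since cells are not replicates of a condition. All 24 rows are named, and of the wider pathway the 3 most abundant, the 3 with the highest index and any above the spike-ins, with others chosen after their values were seen. For likeness, the 5 closest rows with at least 100 UMIs are named. The members and gene lists were chosen with earlier results of these data known.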

Additional observations from a re-analysis of the deposited data

How the results depend on the processing

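How cells were scaled changed the spread and co-variation of the import genes. The 1 member of 21 above the highest spike-in index, TIMM10, became 4 with DESeq2 size factors (TIMM10, TIMM17A, TOMM20 and TOMM7), 3 with TMM (TIMM10, TIMM17A and TOMM7) and 10 with spike-in totals, where 4.42%, 3.81% and 8.95% of rows passed. In each of these 3 the share of members that passed was above that of rows, and no difference was tested. Many of the rows are less abundant than the members. With the main scaling, 2.83% of rows passed with no minimum of UMIs and 5.59% of those with at least 100. Shares for rows of like abundance are not given for the 3 scalings, so the excess is no result about the import genes. The count was 14 when the bound was the median spike-in index. With spike-in indices against endogenous totals, an alternative added after seeing the data, it was 0. The mean pairwise rho of 0.0571 became 0.153, 0.108 and 0.329 under the same 3 scalings, with 0.0439, 0.0334 and 0.0959 over all rows. The rho of TOM with TIM sums, 0.202, was 0.825 per spike-in UMI and 0.368 in cells numbered above 48. The rho of the summed share with depth, 0.432, was 0.303 in cells up to 48 and 0.711 above. Spike-in scaling keeps differences between cells in endogenous UMIs per spike-in UMI. With it the range of the summed level over cells was 4.95-fold against 1.81-fold. Whether those differences are of mRNA content or of capture was not tested, nor was the cause of any of these shifts.

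Gene minimum and leaving out cell 43 or 52 left 1 member above the highest spike-in index. The mean pairwise rho stayed within 1.5 times under these, thinning to 29325 UMIs, Pearson correlation, a pseudocount of 0.5 and either range of cell numbers. The rho of sums and that with depth stayed within 0.1 under thinning and without cell 43 or 52. The 14 members found in every cell were 12 after thinning, where 740 rows of the table were found in every cell against 1033 before, 12 with a minimum of 2 UMIs, and 14 without cell 23, 43 or 52. All 23 detected members kept their share within 1 SD over cells without mitochondrially encoded rows in the total. That change multiplies every member's share by the same factor, so it is no separate check of each member.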
